A study of Mus musculus with 2 samples.

Results

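The vascular endothelial growth factor (VEGF) ligands and receptors were followed here in mouse bone marrow macrophages, as 9 genes: the ligands Vegfa, Vegfb, Vegfc and Pgf, the receptors Flt1, Kdr and Flt4, and the co-receptors Nrp1 and Nrp2. They were taken by name as a gene family, and the family was chosen by the measured difference of Flt1 between these same arrays, so the differences below are a description and no test was made of them. Every gene probe present in both scanner outputs whose transcript accession names one of these genes was included, which gave 17 of 32988 named probes, and 9 of 22910 named genes. Primary macrophages were bone marrow cells of C57BL/6 mice grown for 5 days with 100 ng/ml rhM-CSF, a recombinant human growth factor for macrophages, and self-renewing macrophages were cells of the same kind of culture after passage 4, also kept in rhM-CSF, when by the methods most cells had stopped growing and colonies grew out. Both are labelled male, and each is 1 bulk culture measured on 1 array with 1 dye. The comparison sets macrophages that go on dividing after repeated passage beside primary macrophages of an early culture. Time in culture and passage differ between the arrays together with cell type, and these cannot be told apart. With 1 array per cell type, no value has a replicate check and the number of arrays limits the precision of every difference.

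VEGF ligands are secreted proteins that guide the growth and leakiness of blood and lymph vessels. VEGF-A binds the receptor tyrosine kinases FLT1 (VEGFR1) and KDR (VEGFR2), VEGF-B and placental growth factor (the product of Pgf) bind FLT1, and VEGF-C binds FLT4 (VEGFR3) and KDR, while the neuropilins assist them and also serve as receptors for class 3 semaphorins. Macrophages are a well-known source of VEGF-A, and FLT1 is the VEGF receptor usually linked to monocytes and macrophages, whereas KDR and FLT4 are best known from blood and lymphatic endothelium.

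The promoters of the 3 genes on which the results turn are shown first: Flt1 and Vegfa, whose probes differed most between the arrays, and Kdr, the other main receptor of VEGF-A. Each is the 250 bases before the gene's start in RefSeq, build GRCm38.p6, written 5′ to 3′ on the gene's strand, which is the minus strand for all 3. Flt1 is at chr5:147726012-147726261, Kdr at chr5:75978456-75978705 and Vegfa at chr17:46032378-46032627. Capitals mark matches, on either strand, to TGACGTCA (the cyclic AMP response element), TATAAA (the TATA box), GGGCGG (the GC box) and ACGTG or GCGTG (the core letters of hypoxia response elements).
Flt1: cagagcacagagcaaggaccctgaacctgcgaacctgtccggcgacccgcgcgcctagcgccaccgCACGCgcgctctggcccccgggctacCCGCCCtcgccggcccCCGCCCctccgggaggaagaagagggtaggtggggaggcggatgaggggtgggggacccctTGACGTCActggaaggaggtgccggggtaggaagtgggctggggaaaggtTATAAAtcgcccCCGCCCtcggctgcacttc
Kdr: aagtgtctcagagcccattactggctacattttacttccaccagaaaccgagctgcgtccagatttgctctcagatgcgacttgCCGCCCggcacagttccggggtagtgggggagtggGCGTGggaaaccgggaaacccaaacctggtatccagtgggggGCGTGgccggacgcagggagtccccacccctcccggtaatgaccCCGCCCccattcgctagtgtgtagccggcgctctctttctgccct
Vegfa: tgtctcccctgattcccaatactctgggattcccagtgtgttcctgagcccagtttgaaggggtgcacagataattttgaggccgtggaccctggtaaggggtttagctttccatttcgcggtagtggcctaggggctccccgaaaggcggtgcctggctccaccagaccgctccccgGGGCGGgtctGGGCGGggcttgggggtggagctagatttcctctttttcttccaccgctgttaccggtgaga

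The Flt1 window holds the full palindrome TGACGTCA at position -81 and TATAAA at position -31, counted back from the start, together with GC boxes at -158, -142 and -19 and 1 hypoxia response core at -184. Among 32851 windows of the same length, 1.55% hold TGACGTCA, 12.4% TATAAA, 32.7% GGGCGG, 16.6% ACGTG and 28.2% GCGTG. Of the 11 windows listed for the 9 genes, 1 holds TGACGTCA and 1 TATAAA, in both cases that of Flt1, 10 hold a GC box, 7 hold GCGTG and 1 holds ACGTG. The Kdr window has GC boxes at -166 and -45 and GCGTG at -131 and -89. The Vegfa window shown has GC boxes at -72 and -62 and no hypoxia response core within its 250 bases. Sequence further upstream was not searched for any gene, so the windows do not tell whether Vegfa has such an element there. A second window listed for Vegfa, at chr17:46025164-46025413, is not shown. On the minus strand it lies downstream of the start used above, so its letters are not read as the promoter of that start. This window holds GCGTG at -218, ACGTG at -211 and a GC box at -158, and it is the 1 window counted above with ACGTG. The GC content was 70.4% for Flt1, 61.6% for Kdr and 59.2% for Vegfa. These matches describe the letters of the windows and say nothing on binding, which was not measured.

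The identity of the cultures was checked before the members were read. All 10 macrophage markers passed as well above background on each array, a call made by the scanner software for each spot, and Csf1r, the receptor for M-CSF, had an intensity of 113750 in the primary and 153276 in the self-renewing macrophages. The summed level of the macrophage markers, in multiples of the array's 75th percentile of intensity, was 945 and 1245. Of 12 endothelial markers, 5 were well above background in the primary and 4 in the self-renewing macrophages, with summed levels of 8.14 and 6.22, and Tek, Tie1, Emcn and Erg were on neither array. Of 10 stromal markers, 4 and 2 were well above background, with summed levels of 51.8 and 47.0. The brightest of them, Acta2, read 22394 in primary and 20890 in self-renewing macrophages. The 9 neutrophil markers found on the array moved with the cell type: 8 were well above background in the primary and 4 in the self-renewing macrophages, and their summed level went from 106 to 6.44. The array of the primary macrophages went against its label, since 0 of 7 Y-linked genes were well above background there and 4 in the self-renewing macrophages, while Xist was so in the primary macrophages only. Sex of the donor and cell type therefore cannot be told apart in any difference below. In bulk RNA, fewer cells of a type and less RNA per cell cannot be told apart either, and the part of the neutrophil markers in the members' differences was not tested.

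Levels are given as intensity after the scanner's own background correction, and differences as log2 relative to each array's 75th percentile, which was 434 in the primary and 446 in the self-renewing macrophages. The error beside a difference is the scanner's error of the 2 spots, from 0.20 to 0.26 log2 for the members, and covers the measurement of a spot only. The SD of the difference between probes of 1 gene was 0.32 log2 over 5077 genes with several probes. A probe well above background on 1 array only is given as a bound, "at least N-fold", for which its signal on the dim array was set to the lowest intensity called well above background there, or to its own reading where that was higher. Of the 17 probes, 13 were well above background on both arrays, 2 in the primary macrophages only, 0 in the self-renewing macrophages only and 2 on neither. No spot of a member was saturated or carried an outlier flag.

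**Figure D1:**
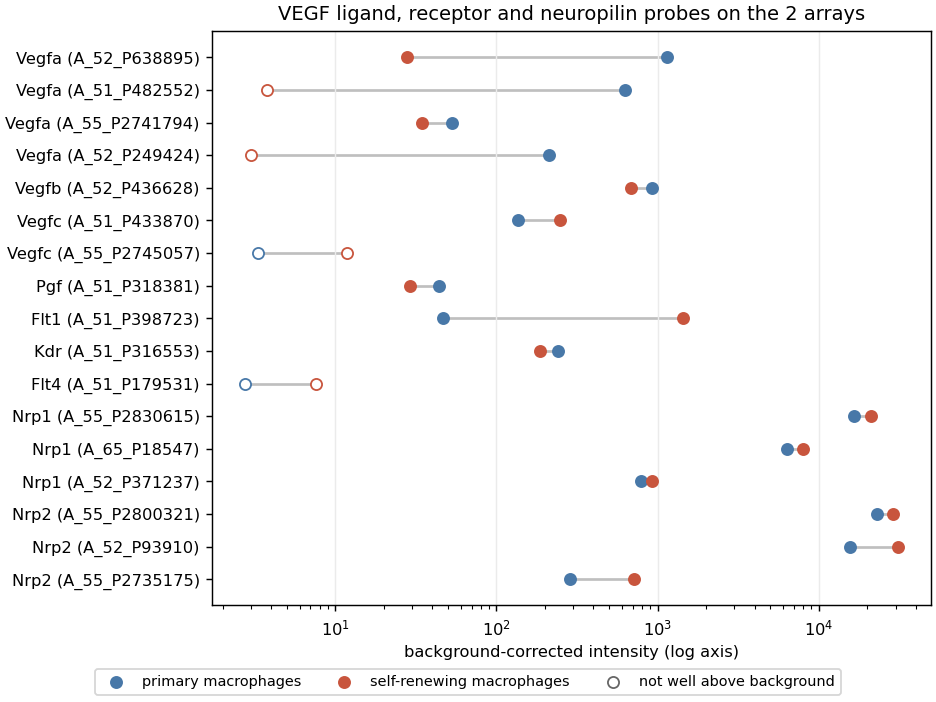
Background-corrected intensity of each of the 17 probes (log axis) on the array of the primary macrophages (blue) and of the self-renewing macrophages (red), with open points for spots not well above background. The long lines belong to 3 Vegfa probes, brighter in primary macrophages, and to the Flt1 probe, brighter in self-renewing macrophages.

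The plot of intensities shows where the family differed. Flt1 was the only one of the 9 genes at least 2-fold higher in self-renewing macrophages, and Vegfa the only one at least 2-fold lower, when the probe of highest mean signal stood for each gene. The 6 other genes with a value lay within 2-fold, and Flt4 was on neither array. Among all 15515 named genes with a value, 4.76% were past 2-fold on the higher side and 8.38% were at least 2-fold lower. Counted by probe, 2 members were at least 2-fold higher, against 4.65% of all 22548 named probes with a value, and 3 were at least 2-fold lower, against 7.68%. Since the family was picked with the Flt1 difference known, nothing is read from these counts.

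Vegfa, the ligand of both FLT1 and KDR, was represented by 4 probes, and all were dimmer in self-renewing macrophages. The probe that stands for the gene in the counts, A_52_P638895, had an intensity of 1147 in primary and 27.8 in self-renewing macrophages. Its level was lower by 42.4-fold (log2 difference -5.41 ± 0.26, scanner error), and both spots were well above background. A further probe, A_51_P482552, read 629 in primary macrophages and 3.78 in self-renewing macrophages, where it was not well above background, which made it at least 49.2-fold lower. The probe A_52_P249424, designed to another Vegfa transcript, read 213 and 2.98 and was at least 16.6-fold lower.

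The remaining Vegfa probe, A_55_P2741794, differed little between the arrays. It read 53.0 in primary and 34.7 in self-renewing macrophages, both well above background, which made it 1.57-fold lower (log2 difference -0.65 ± 0.24). Vegfa is spliced into several isoforms, and the probe sequences were not used here, so the part of the transcript that each probe reads is not known. This probe and A_52_P638895 name the same transcript, and the SD of their 2 differences was 3.36 log2, against 0.32 log2 for probes of 1 gene in general.

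The other ligands differed little. Vegfb, known mainly from heart and muscle, read 924 in primary and 683 in self-renewing macrophages, 1.39-fold lower (log2 difference -0.48 ± 0.20). Pgf, which encodes placental growth factor, was dim on both arrays at 44.0 and 29.2, 1.55-fold lower (-0.63 ± 0.26). Vegfc, the main growth factor of lymphatic vessels, was the only ligand that was brighter in self-renewing macrophages. Its probe A_51_P433870 read 136 and 248, 1.77-fold higher (0.83 ± 0.21), and its probe A_55_P2745057 read 3.32 and 11.9, on neither array well above background. Of the 8 ligand probes, 0 were past 2-fold on the higher side and 3 on the lower, all of Vegfa.

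The receptors differed from each other. Flt1, a receptor with high affinity for VEGF-A and weak kinase activity that is also made as a soluble form, was measured by the 1 probe A_51_P398723, which read 46.4 in primary and 1446 in self-renewing macrophages. It was 30.3-fold higher in the latter (log2 difference 4.92 ± 0.22). Before any correction, the median of its spot was 81.5 over a local background of 26 in primary macrophages and 1296 over 27.5 in self-renewing macrophages. The raw signal separated the arrays too, and on the primary array the spot stood close to its local background. Whether the probe reads the membrane form of Flt1, the soluble form or both is not known here.

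Kdr, the main signalling receptor of VEGF-A in endothelium, stayed close to its level in primary macrophages. It read 242 in primary and 187 in self-renewing macrophages, 1.33-fold lower (log2 difference -0.41 ± 0.21). Flt4, the receptor of VEGF-C, read 2.75 and 7.54 and was on neither array well above background. Flt1 was therefore the 1 receptor probe of 3 at least 2-fold apart. Of the 12 endothelial markers, 6 had a value, 0 were at least 2-fold higher and 1 was lower, with a median of -0.43 log2. The shares over all named genes with a value were 4.76% higher and 8.38% lower. Egfl7 read 332 in primary and 70.9 in self-renewing macrophages, 4.81-fold lower. Cdh5 and Esam were well above background in primary macrophages only and at least 1.76-fold and 1.47-fold lower. Pecam1 was at 0.36 log2, Cldn5 was well above background in self-renewing macrophages only and at least 1.63-fold higher, and the summed level given above was mostly that of Vwf, which read 3062 and 2563. The part of endothelial cells in the Flt1 difference was not tested.

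**Figure D2:**
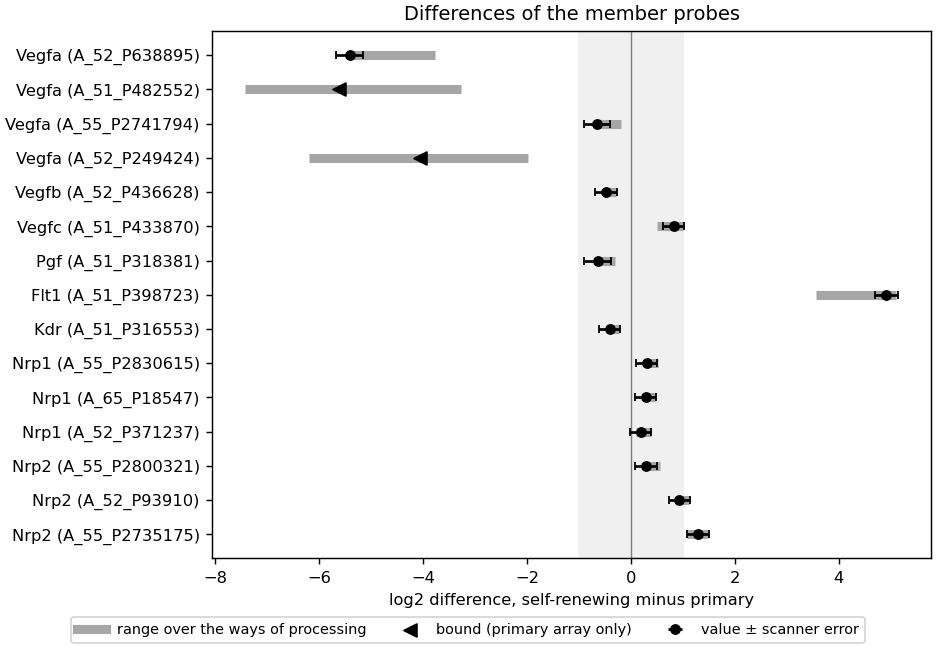
Log2 difference of the 15 member probes with a value, self-renewing minus primary (points, with the scanner's error as bars; triangles are bounds) and the range over the ways of processing tried (grey bars). The pale band marks differences within 2-fold; 10 of the 15 probes lie in it, and no range crosses 0.

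The neuropilins were well above background on both arrays and higher in self-renewing macrophages with every probe. Nrp1, a co-receptor for VEGF-A and for semaphorin 3A, had 3 probes. A_55_P2830615 read 16623 in primary and 21189 in self-renewing macrophages, A_65_P18547 read 6372 and 7991, and A_52_P371237 read 789 and 928. The mean log2 difference over the probes was 0.26 ± 0.06 (SD between 3 probes of the same RNA), or 1.14-fold to 1.24-fold higher, close to the scanner's error of a single probe.

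Nrp2, a co-receptor for VEGF-C and semaphorin 3F, had 3 probes that name different transcripts and spread more. A_55_P2800321 read 22889 in primary and 28893 in self-renewing macrophages, 1.23-fold higher. A_52_P93910 read 15745 and 31021, 1.92-fold higher, and A_55_P2735175 read 284 and 718, 2.46-fold higher (log2 difference 1.30). All 3 probes were higher in self-renewing macrophages, and only the last was past 2-fold. The mean over them was 0.84 ± 0.51 log2 (SD between 3 probes), and whether the spread comes from the transcripts or from the probes was not tested. Of the 6 neuropilin probes, all were well above background on both arrays, 1 was past 2-fold on the higher side and 0 on the lower.

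In the plot of differences, the ways of processing moved Flt1 and Vegfa most, and no member changed sign. With a model-based background correction (normexp) Flt1 was 11.9-fold higher and the Vegfa probe A_52_P638895 13.7-fold lower. The bounds of the other Vegfa probes past 2-fold were at least 9.67-fold and at least 3.91-fold. This setting also adds an offset of 50 to every intensity, which by itself makes the differences of dim probes smaller. The offset and the correction were not tried apart. With the authors' scaled values, which raise the median of all genes by 0.19 log2, the Vegfc probe and the Nrp2 probe A_52_P93910 also passed 2-fold, at 1.02 and 1.13 log2, and 49.2% of all 2-fold differences were rises, in place of 36.2%.

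**Figure D3:**
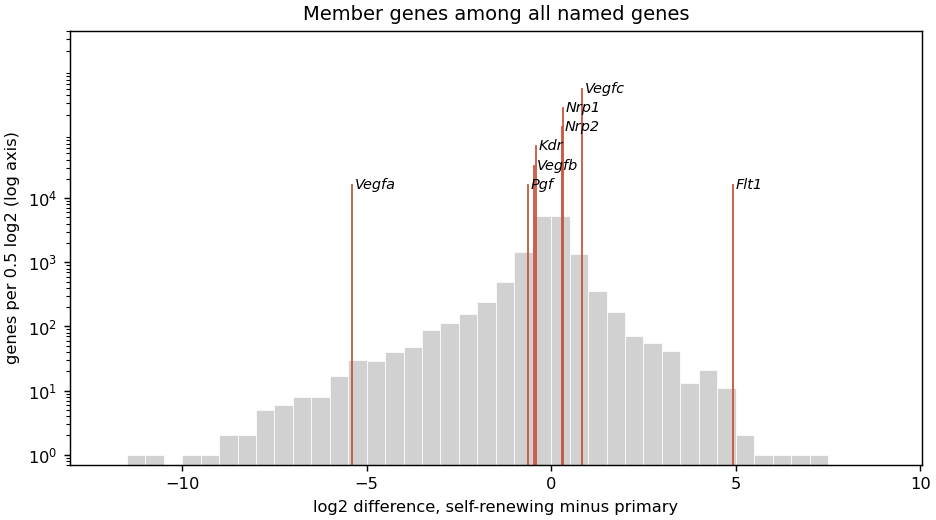
Number of named genes (log axis) per 0.5 log2 of difference, self-renewing minus primary, with the 8 member genes that have a value as red lines; the height of a red line only makes room for its name. Vegfa lies in the lower and Flt1 in the upper tail, and the other 6 lie between -0.63 and 0.83.

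Set in the order of the 14003 named genes well above background on both arrays, Flt1 was the 5th highest and Vegfa the 20th lowest. The plot of all genes holds the 15515 named genes with a value. It therefore includes genes given as a bound, which this order leaves out. Among those left out are S100a9, at least 1990-fold lower, and Eif2s3y, at least 157-fold higher. The genes next to Flt1 were Cxcl14 (41.5-fold higher) and Cdkn2b (33.6-fold) above it and Rtn4rl1 (25.1-fold) and Adarb1 (24.8-fold) below it. Next to Vegfa were Rgcc (51.0-fold lower) and Exoc3l4 (45.9-fold), which were lower still, and Rps4l (40.8-fold) and Mpo (36.6-fold), a neutrophil marker. The neighbours of Flt1 from 24.8-fold to 33.6-fold, and those of Vegfa from 36.6-fold to 51.0-fold, lay within the SD between probes of a gene and have no firm order. Vegfc was the 828th highest and Pgf, Vegfb and Kdr the 1447th, 2068th and 2424th lowest. With 2 arrays, this rank is the only measure of likeness that could be had.

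The relatives of the VEGF ligands comprised Vegfd, the platelet-derived growth factors, which share their fold, and the receptors of the latter. Of 7 genes, 4 had a value, 1 was at least 2-fold higher and 1 lower, and their median was 0.07 log2, beside -0.02 over all named genes. Beside this count and those of the next lists stand the shares over all named genes with a value, 4.76% higher and 8.38% lower. Pdgfc, a growth factor for mesenchymal cells, read 71.8 in primary and 610 in self-renewing macrophages, 8.25-fold higher, or 4.78-fold with the normexp correction. Pdgfa, which acts on the same receptor, read 1866 and 922, 2.08-fold lower, and was 1.83-fold lower with the authors' scaled values. Its other probe read 196 in primary and 157 in self-renewing macrophages, 1.28-fold lower, and the mean over both probes was 1.63-fold lower. Vegfd, the closest relative of Vegfc, was 1.34-fold lower, and the receptors Pdgfra and Pdgfrb were on neither array.

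Of 12 semaphorins and plexins that pair with the neuropilins, 8 had a value, 2 were at least 2-fold higher and 1 lower, with a median of 0.20 log2. Sema3c, a secreted ligand of both neuropilins, read 108 in primary and 508 in self-renewing macrophages, 4.59-fold higher (3.01-fold with the normexp correction). Plxna2, a plexin that transmits semaphorin signals together with the neuropilins, read 300 and 1083, 3.52-fold higher, and its 2 probes were close, at 1.81 and 2.07 log2. Plxnd1, a plexin known from developing vessels, read 13812 and 6665, 2.13-fold lower, with its probes at -1.09 and -1.04 log2, but 1.87-fold lower with the authors' scaled values, under which 3 genes of the list were past 2-fold on the higher side and 0 on the lower. Sema3a, Sema3b, Sema3d and Sema3e were on neither array.

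Of 9 membrane partners of the VEGF receptors, 8 had a value, 0 were at least 2-fold higher and 2 lower, with a median of -0.38 log2. Itgb3, the integrin chain that pairs with Itgav and associates with KDR, read 1205 in primary and 7.51 in self-renewing macrophages, at least 94.2-fold lower, while its dimmer probe was 2.73-fold lower. The Itgb3 bound was at least 19.2-fold with the normexp correction, and the mean over both probes was at least 16.1-fold lower. Cav1, the scaffold of caveolae, read 75.6 and 9.58, at least 5.91-fold lower, and at least 1.81-fold with the normexp correction. The partner chain Itgav was at 0.12 log2, and Ptprb, an endothelial phosphatase, was on neither array.

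The genes of oxygen sensing act upstream of Vegfa: under low oxygen, the HIF transcription factors escape the prolyl hydroxylases (Egln genes) and VHL and switch Vegfa on. Of 10 genes, 8 had a value, 1 was at least 2-fold higher and 1 lower, with a median of 0.06 log2. Epas1, which encodes HIF-2α, read 323 in primary and 1883 in self-renewing macrophages, 5.67-fold higher. Egln3, a hydroxylase that is itself a target of HIF, read 180 and 2.98, at least 14.1-fold lower, or at least 3.55-fold with the normexp correction. Hif1a, which encodes HIF-1α, was at -0.45 log2, and Vhl at -0.01 log2. The hydroxylases Egln1 and Egln2 were at -0.27 and 0.12 log2, so Egln3 was the only one of the 3 past 2-fold. HIF proteins are regulated mainly by their stability, which arrays do not read.

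Of 49 genes of signalling below the VEGF receptors, 48 had a value, 7 were at least 2-fold higher and 3 lower, with a median of 0.13 log2. Most of the shared kinases were near their level in primary macrophages: Mapk3 was at 0.05 log2, Map2k1 at 0.04 log2 and Akt1 at 0.04 log2. Those higher included Pla2g4a, the phospholipase that releases arachidonic acid, which read 2046 and 9250, 4.39-fold higher, and Ptgs2, the inducible cyclooxygenase, at least 2.79-fold higher. The p38 kinase genes Mapk11 (2.68-fold), Mapk12 (8.27-fold) and Mapk13 (3.84-fold) were also higher, while Mapk14, the p38 gene of most tissues, was at 0.38 log2. The second Mapk12 probe was well above background in self-renewing macrophages only and was at least 1.17-fold higher. Mapk12 read 15.4 in primary macrophages, close to the lowest intensity well above background there (11.8). It was 2.60-fold higher with the normexp correction and at least 3.12-fold as the mean of its probes. Pik3r3, a regulatory subunit of phosphoinositide 3-kinase, was 4.24-fold higher and the adaptor Nck1 2.03-fold.

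Among the genes that were lower in the same list, Nos3, the endothelial nitric oxide synthase, read 311 in primary and 101 in self-renewing macrophages, 3.16-fold lower, and Sphk1, which makes sphingosine 1-phosphate, read 192 and 82.0, 2.40-fold lower. With the normexp correction 3 genes of the list were at least 2-fold higher in place of 7, as Mapk13, Pik3r3, Nck1 and Ptgs2 fell to between 1.46-fold and 1.98-fold, and Sphk1 was 1.79-fold lower.

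**Figure D4:**
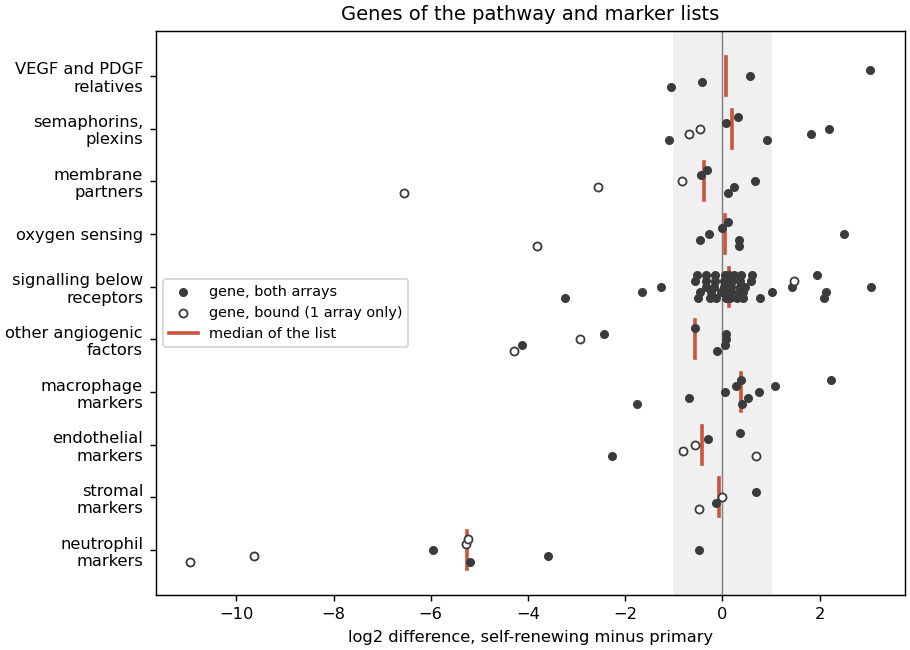
Log2 difference, self-renewing minus primary, of each gene with a value in the pathway and marker lists (filled points, well above background on both arrays; open points, bounds), with the median of each list as a red line and differences within 2-fold as a pale band. The medians of the signalling and oxygen sensing lists lie near 0, at 0.13 and 0.06, and that of the neutrophil markers at -5.26. Those of the membrane partners and of the other angiogenic factors lie at -0.38 and -0.56.

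The plot of the lists sets these groups side by side with the cell type markers. The lists of relatives, oxygen sensing and signalling had medians of 0.06 to 0.13 log2, beside -0.02 over all named genes, and each held single genes far from it in both directions. The median was 0.20 log2 for the semaphorins and plexins and -0.38 log2 for the membrane partners. For the other angiogenic and angiostatic factors it was -0.56 log2. Of the macrophage markers, 2 were at least 2-fold higher, Mertk (4.68-fold) and Cx3cr1 (2.13-fold), and 1 was lower, Fcgr1 (3.39-fold). Of the 8 neutrophil markers with a value, 7 were at least 2-fold lower.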

How the data were processed

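SurePrint G3 mouse arrays were used, 1 for the RNA of each culture. The intensity values deposited by the authors come from the scanner software (Feature Extraction 11.5.1.1), both raw and corrected for background within the array, and were not scaled between arrays. They also deposited these intensities multiplied by 1 constant per array, 1.07 for primary and 1.19 for self-renewing macrophages over 59305 gene spots, and how these were chosen is not given in the sources used here.

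Log2 of the corrected intensity was taken after division by the 75th percentile of gene probes on the same array. Control spots and the 63 gene spots per array with an outlier flag were left out, spots of 1 probe were averaged, and probe accessions were looked up in a RefSeq table of GRCm38.p6, which matched 32988 of 56598 probes. No probe coordinates are given, as the array design uses an earlier assembly. Of the probes, 34807 were well above background in primary and 33095 in self-renewing macrophages. In counts of genes, a gene is its probe with the highest mean signal. Sizes were given without a test, at 2-fold for counts and 5-fold for naming the next genes in order.

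The members and gene lists were chosen with earlier results of these data known. Named were all members with every probe and, of each pathway list, genes at least 2-fold apart whose probes do not disagree in direction, at most the largest 6 per direction. Other genes named, such as Mapk3, Itgav or Vhl, were chosen after their values were seen. The values of 1 listed gene are not reported here. Alternatives were normexp (offset 50) on median spot signal and local background, quantile normalization, the authors' scaled values, the 75th percentile or the median of the probes detected on both arrays, no filter on background, only probes detected on both arrays, and the mean of all detected probes of a gene. Scripts were tested on simulated data. Python 3.11.15, numpy 2.4.6, pandas 2.3.3, matplotlib 3.10.9, R 4.3.3 and limma 3.58.1 were used.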

Additional observations from a re-analysis of the deposited data

How the results depend on the processing

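Of 103 values of single member probes under 7 alternatives, 94 stayed within the SD between probes of a gene, 9 moved by more and 0 changed sign. Much of this was fixed in advance. Changes of the filter leave the 13 probes on both arrays as they were, and a bound cannot change sign. The authors' scaled values and the scalings to detected probes add 1 constant to every difference. Most moves came with the normexp correction, for Flt1, Pgf, Vegfc and every Vegfa probe. The counts of members depended on the scaling and on the filter. With the authors' scaled values, 4 member probes and 2 member genes were at least 2-fold higher, in place of 2 and 1, as Nrp2 probe A_52_P93910 and Vegfc were added. With no filter on background, 4 member probes and 2 member genes were also at least 2-fold higher, here through the dim probes of Flt4 and Vegfc. With only probes well above background on both arrays, 1 member probe was at least 2-fold lower in place of 3, since the other 2 were bounds. Of 96 counts of list genes under the alternatives 10 moved, and of 39 list genes at least 2-fold apart 0 changed sign and 8 fell under 2-fold under at least 1 alternative. No array could be left out, and intensities near background limit the differences of Flt1, Pgf and the Vegfa probes A_52_P638895 and A_55_P2741794. No paired analysis was possible because only 1 array was made from each culture.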

Other observations

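Besides the VEGF family, 12 genes for other factors that promote or restrain vessel growth were listed. Of these, 9 had a value, 0 were past 2-fold on the higher side and 4 on the lower. Over all named genes with a value, 4.76% were at least 2-fold higher and 8.38% lower. The median of the list was -0.56 log2 beside -0.02 over all named genes. The 4 lower genes of the list belong to both kinds. Thbs1, which encodes thrombospondin 1, an inhibitor of vessel growth, read 250 in primary and 2.85 in self-renewing macrophages, at least 19.5-fold lower, and its other probe was at least 5.58-fold lower. Col18a1, the precursor of the inhibitor endostatin, read 9312 and 1768, 5.42-fold lower. Angptl4, an angiopoietin-like inhibitor of lipoprotein lipase that is induced by low oxygen, read 854 and 50.7, 17.3-fold lower. Hgf, the hepatocyte growth factor, which promotes vessel growth, read 97.9 and 2.84, at least 7.65-fold lower, with its other probe at least 5.60-fold lower. With the normexp correction, Thbs1 was at least 4.77-fold lower, Hgf at least 2.40-fold and Angptl4 8.55-fold. The mean over the Thbs1 probes, both bounds, was at least 10.4-fold lower. Angpt2, a ligand of the TIE2 receptor, was at -0.12 log2, and Angpt1, Fgf2 and Thbs2 were on neither array. The neutrophil markers were lower beside this list, at a summed level of 106 in primary and 6.44 in self-renewing macrophages, in multiples of the 75th percentile, and their part in it was not tested.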
